A study of Mus musculus with 40 samples.

Results

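The 36 genes described here sense foreign or misplaced nucleic acid, relay that signal, or carry out the interferon response, and they were grouped by name and function, with no threshold on a measured value but with earlier results of these data known, to ask whether transposable elements (TEs) that lose silencing are accompanied by an antiviral response. They are 36 of 56748 gene identifiers in the count table, and 31 of them passed the low count filter that 23399 genes passed. By role they comprise 8 sensors and adaptors (Ifih1, Rigi, Dhx58, Mavs, Sting1, Cgas, Tlr3, Zbp1), 7 signalling factors (Irf1, Irf3, Irf7, Irf9, Stat2, Trim25, Usp18), 17 induced effectors (Isg15, 3 Ifit genes, 3 Ifitm genes, 5 genes of the oligoadenylate synthetase family, Eif2ak2, Bst2, Mx1, Mx2, Rsad2) and 4 genes that edit, degrade or restrict nucleic acid (Adar, Samhd1, Trex1, Apobec3). The 5 members that did not pass the filter were Usp18, with 0 to 9 reads per library, Ifit3 with 0 to 8, Mx1 with 0 to 9, Mx2 with 0 to 13 and Trex1 with 0 in all 40 libraries. Trex1 lies within the span of Atrip on the same strand, and reads shared by both genes may not have been assigned to either, so its value says nothing of its expression.

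RNA was measured in male mouse embryonic stem (mES) cells in the naive state and in epiblast-like cells (EpiLCs), which model the epiblast around implantation. mES cells were grown with LIF, 3 µM CHIR-99021 and 1 µM PD0325901, and EpiLCs were collected after 48 h in medium containing FGF (20 ng/mL) together with Activin A (12 ng/mL). The genotypes were wild type (WT, 8 libraries at each stage), Lbr knockout (LBRKO), a triple knockout of the lamin genes Lmna, Lmnb1 and Lmnb2 (TKO), and a quadruple knockout of the lamins and Lbr (QKO), with 4 libraries per mutant and stage. Libraries came from separate wells, QKO was 1 clone derived from TKO cells, and the labels did not state which LBRKO clone a library represented, so p-values measure spread between wells. Per the methods of the study, TKO cells carried trisomy 8 and WT cells a mixed karyotype that included subpopulations with extra copies of chromosomes 6 and 8. Tlr3 and Bst2 are on chromosome 8 and Usp18 on chromosome 6.

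As background, double-stranded RNA in the cytoplasm is bound by RIG-I (encoded by Rigi) and MDA5 (Ifih1), which signal through Mavs, whereas cytoplasmic DNA is bound by cGAS (Cgas), which signals through STING (Sting1). Both routes activate Irf3 and Irf7 and switch on type I interferon. Interferon then acts on its receptor through a complex that includes Stat2 and Irf9 and binds interferon-stimulated response elements (ISREs) in promoters of genes such as Isg15, Ifit1 and Rsad2. Pluripotent cells are known for a weak interferon response, and transcripts of endogenous retroviruses and LINE-1 elements are among the nucleic acids that these sensors can bind.

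Promoters of members were searched on both strands for the ISRE core, written as GAAA, any 2 bases, GAAA, and for the gamma-activated sequence motif, TTCNNNGAA, in the 250 bases upstream of the annotated start (GENCODE M39, GRCm39). The ISRE core was found in 11 of 36 members (30.6%) and in 723 of 21757 promoters of protein-coding genes (3.32%). The 11 members were Apobec3, Bst2, Ifit1, Ifit3, Isg15, Oas2, Oas3, Rsad2, Stat2, Usp18 and Zbp1. The second motif, whose fixed letters read the same on both strands, was found in 8 of 36 members (22.2%) and in 1675 promoters (7.7%). Those members were Bst2, Eif2ak2, Ifit2, Irf1, Oas1a, Samhd1, Sting1 and Zbp1. The windows of Rigi, Ifih1, Oasl1 and Oasl2 held neither. A match describes these letters only and is not evidence of binding. The sequences below belong to 6 of the 7 members that were called in QKO cells at either stage and whose windows held a motif (Sting1 is not shown), and capitals mark the letters of either motif, which overlap in Bst2 and Zbp1. Windows of Bst2 (chr8:71990115-71990364, minus strand), Rsad2 (chr12:26506452-26506701, minus strand) and Zbp1 (chr2:173060725-173060974, minus strand) are shown whole.
Bst2: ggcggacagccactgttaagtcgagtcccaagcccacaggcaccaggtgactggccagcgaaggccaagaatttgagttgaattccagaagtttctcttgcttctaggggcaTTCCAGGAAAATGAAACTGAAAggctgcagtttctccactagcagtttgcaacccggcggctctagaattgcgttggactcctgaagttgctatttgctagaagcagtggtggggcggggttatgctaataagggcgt
Rsad2: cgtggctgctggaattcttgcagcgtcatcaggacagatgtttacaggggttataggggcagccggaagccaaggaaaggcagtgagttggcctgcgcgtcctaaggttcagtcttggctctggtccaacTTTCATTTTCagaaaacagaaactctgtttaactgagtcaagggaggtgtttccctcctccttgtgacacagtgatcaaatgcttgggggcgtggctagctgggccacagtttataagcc
Zbp1: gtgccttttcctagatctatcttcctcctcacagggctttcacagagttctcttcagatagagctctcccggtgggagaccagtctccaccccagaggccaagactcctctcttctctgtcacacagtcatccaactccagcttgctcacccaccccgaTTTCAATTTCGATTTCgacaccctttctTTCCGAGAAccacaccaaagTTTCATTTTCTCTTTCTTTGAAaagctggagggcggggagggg
The windows of Ifit1, Ifit2 and Irf1 overlap annotated exons, and the 30 bases around the match are shown (chr19:34618185-34618214, chr19:34527843-34527872 and chr11:53660741-53660770, all plus strand).
Ifit1: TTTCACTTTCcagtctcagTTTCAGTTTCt
Ifit2: tcatgggagcTTCCTGGAAgaatggataaa
Irf1: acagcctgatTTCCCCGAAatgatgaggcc

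Libraries held 22.59 to 48.86 M reads on genes. WT replicates 1 to 4 of mES cells were shallower (27.7 to 33.06 M) than replicates 5 to 8 (39.43 to 46.63 M), the former in the depth range of TKO and QKO and the latter in that of LBRKO, and the labels give no batch. Between these sets of WT replicates 8 of 31 members did not overlap in mES cells, 2 of them by over 2-fold, and 2 of 31 in EpiLCs. The share over all genes was not computed, so these counts describe the members only. Member calls that changed with the set of WT replicates are given beside each comparison. Of the targeted genes, Lmnb1 and Lmnb2 went with the labels. Lmnb1 was at 480.6 to 568.3 CPM (counts scaled by the TMM-normalised library size) in WT and LBRKO libraries and at 0.5351 to 15.52 CPM in TKO and QKO libraries. Lmna was lower in TKO and QKO mES cells than in WT, but QKO EpiLCs (6.941 to 9.423 CPM) overlapped WT EpiLCs (9.277 to 13.02 CPM). Lbr was at 346.5 to 512.3 CPM in WT and 235.7 to 290.4 CPM in QKO. In LBRKO it was at 145.2 to 402.8 CPM, where transcript remained and EpiLC libraries overlapped WT. All 8 naive markers fell and all 7 EpiLC markers rose between WT mES cells and WT EpiLCs.

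Compared per gene length in WT mES cells, the genes of the Ifitm family, whose products block viral entry at membranes, were the highest members. Mean RPKM (CPM per kilobase of exon) was 238 for Ifitm2, 209 for Ifitm3, 162 for Ifitm1, 38.1 for Trim25, the ubiquitin ligase acting on RIG-I, and 31.6 for Bst2, which tethers virions to the cell surface. At the other end, Isg15, the ubiquitin-like modifier, was at 0.0774, Ifit1, which binds viral RNA ends, at 0.0364, and Tlr3, the endosomal RNA receptor, at 0.0336. RIG-I transcript was at 5.03 RPKM and that of MDA5 at 0.0819 RPKM. In WT EpiLCs the highest means were those of Ifitm2 (129 RPKM), Bst2 (79.4 RPKM) and Ifitm3 (76.5 RPKM). At both stages the levels of Isg15, Ifit1, Ifit3, Mx1, Mx2 and Usp18, which interferon strongly induces, were under 1 RPKM.

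Members more often fell than rose when WT mES cells became EpiLCs: 7 of 31 were higher and 13 lower (edgeR quasi-likelihood test with Benjamini-Hochberg adjustment, adjusted p under 0.05 and over 2-fold, as for every call that follows), which is 22.6% and 41.9% of the members against 18.2% higher and 12.9% lower among all genes. The median member changed by -0.79 on the log2 scale. Of 8 sensors and adaptors 4 fell and 1 rose. Sting1 dropped from 8.58–11.1–12.2 CPM (lowest, median and highest of 8 libraries) to 0.628–0.944–1.32 CPM, a log2 change of -3.51 ± 0.16 (SE, adjusted p = 1.8e-22). Rigi dropped by -1.99 ± 0.17, but its WT mES libraries formed separate sets, at 17.34 to 21.39 CPM in replicates 1 to 4 and 47.58 to 56.02 CPM in replicates 5 to 8. With the former set of WT replicates alone the log2 change was -1.27, and with the latter -2.40. Mavs (-1.29) and Ifih1 (-1.91) also fell. Cgas (-0.96) passed 2-fold with WT replicates 1 to 4 (-1.29) and Zbp1 with replicates 5 to 8 (-1.03).

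Among effectors, the synthetase genes divided. Oas1a, which makes the oligoadenylates that activate RNase L, was at 30.7 to 50.3 CPM in WT mES cells and 0.482 to 1.05 CPM in WT EpiLCs (log2 change -5.68 ± 0.13), and Oas2 (-2.58) and Oasl1 (-1.71) fell with it. Oasl2 went the other way, from 0.0447–0.233–0.446 to 6.87–7.6–9.11 CPM (4.99 ± 0.23, adjusted p = 1.24e-22), and Oas3 rose by 1.69. These genes lie in 2 clusters on chromosome 5, and the direction differed within each cluster. Rsad2, which encodes the antiviral enzyme viperin, rose by 2.80, Tlr3 by 2.71, Isg15 by 2.25 (its libraries overlapped), Ifit2 by 1.39 and Bst2 by 1.33. Ifitm1 fell by 3.87 on the log2 scale, from 152–179–221 to 10.1–12.1–13.9 CPM, and Eif2ak2 (the RNA-activated kinase PKR, -1.71), Irf9 (-2.001), Trim25 (-1.14), Ifitm3 (-1.45) and Apobec3 (-1.26) also fell. With WT replicates 1 to 4 alone Ifitm2 (-1.07) and Stat2 (-1.04) passed 2-fold as well, and Isg15 did not pass the low count filter. These 20 calls compare with 1 to 7 in the comparisons of a mutant with WT.

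In QKO mES cells, where TE transcripts were most abundant among mES cells, no member rose past the threshold and 7 of 31 (22.6%) fell, against 10.6% higher and 6.66% lower among all genes tested. The 7 were Irf1, Bst2, Ifit2, Oasl2, Rsad2, Ifih1 and Zbp1, and the median member changed by -0.32. The absence of a member called higher depended on the WT set: Cgas was at 5.98, 8.045, 7.38 and 7.21 CPM in QKO against 2.66–4.36–5.68 CPM in WT, above every WT library by 0.77 ± 0.16, and with WT replicates 5 to 8 alone it was called higher (1.17, adjusted p = 2.43e-07). Over the alternatives run, the change of Cgas ran from 0.44 to 1.17. With WT replicates 5 to 8 alone Tlr3 was also called lower (-1.71, adjusted p = 0.0267), so that 1 member rose and 7 fell. Irf1, a transcription factor of interferon and MHC genes, was at 10.8, 10.1, 9.74 and 10.1 CPM in QKO against 17.8–24.3–30.6 CPM in WT (log2 change -1.27 ± 0.13, adjusted p = 1.374e-10). Bst2 was at 9.94, 8.47, 8.64 and 8.17 CPM against 19.3–27–39 CPM (-1.69 ± 0.16, adjusted p = 1.63e-11), and -1.41 with WT replicates 5 to 8 alone. Every QKO library lay below every WT library for both genes. Ifit2, which binds RNA and restrains translation, was at 0.357, 0.268, 0.589 and 0.823 CPM against 1.83–2.36–2.82 CPM (-2.17 ± 0.21).

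The remaining 4 that fell in QKO mES cells were expressed at low levels already in WT. Zbp1, the sensor of Z-form nucleic acid, was counted 12 to 55 times per WT library and 0 to 6 times per QKO library (-2.93 ± 0.40, adjusted p = 9.07e-08), and Ifih1 15 to 38 times against 0 to 3 (-4.10 ± 0.60). Neither gene overlapped between the groups. Rsad2 had 93 reads over the 8 WT libraries and 1 over the 4 QKO libraries, a depth-adjusted ratio 35.3-fold lower with a 95% counting interval of 6.18 to 1410, which covers counting error only. Oasl2 (2 to 17 reads against 1 to 4) overlapped, and its call (-1.38 ± 0.46, adjusted p = 0.0124) was lost with WT replicates 5 to 8 as controls (adjusted p = 0.0862) and without QKO replicate 4 (0.0687). At these read numbers a change in few cells and a change in all cells cannot be told apart, as holds for every bulk value here.

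**Figure D1:**
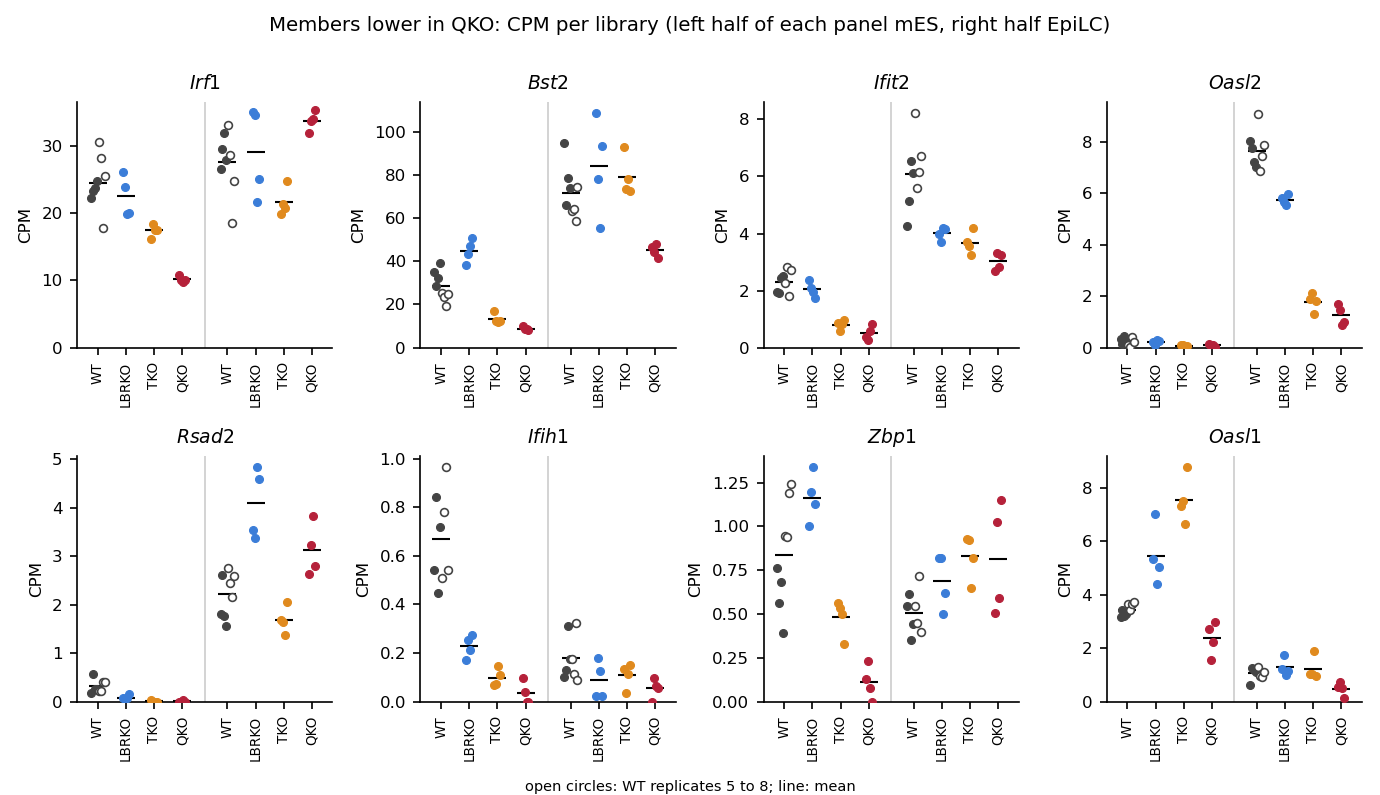
Normalised counts (CPM, linear axis from 0) of the 7 members that fell in QKO mES cells and of Oasl1, 1 point per library, with mES cells on the left and EpiLCs on the right of each panel, lines at group means and open circles for WT replicates 5 to 8. For Irf1 the QKO mES libraries sit between 9.74 and 10.8 CPM, below all WT mES libraries, and those of QKO EpiLCs between 31.9 and 35.3 CPM.

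TKO mES cells, in which Lbr is intact, had 5 of these 7 members called lower as well, against the same WT libraries. Of 31 members 1 rose (3.23%, against 2.68% of all genes) and 6 fell (19.4%, against 3.77%). With WT replicates 5 to 8 alone 3 rose and 5 fell, and with replicates 1 to 4 alone 1 rose and 5 fell. Bst2 was at 16.9, 12.3, 12 and 12.2 CPM (-1.09 ± 0.15), Ifit2 at 0.859, 0.571, 0.825 and 0.986 CPM (-1.51 ± 0.20), and Ifih1 at 2 to 5 reads per library (-2.70 ± 0.50). Rsad2 again had 1 read in 4 libraries (37.9-fold lower, interval 6.63 to 1510). All 4 members were below every WT library. Oasl2 (-1.61) and Tlr3 (-2.32) overlapped WT, at 1 to 3 and 0 to 2 reads per TKO library. The call of Oasl2 was lost with WT replicates 5 to 8 (adjusted p = 0.0556) and without TKO replicate 3 (0.0649), and that of Tlr3 with WT replicates 1 to 4 (adjusted p = 0.233), with the replicate number as a block (0.0682) and without TKO replicate 3 (0.084) or 4 (0.0668). With WT replicates 5 to 8 alone the change of Bst2 was -0.81, under 2-fold, although these cells carried an extra chromosome 8, and Zbp1 was called lower (-1.15). With the same replicates Cgas (1.24, adjusted p = 1.62e-07) and Oas3 (1.38, adjusted p = 1.99e-07) were called higher. Over the alternatives run, the change ran from 0.51 to 1.24 for Cgas and from 0.22 to 1.38 for Oas3. Over all 8 WT libraries Cgas was at 6.86 to 7.78 CPM in TKO, above every WT library by 0.84 ± 0.16, and Oas3 at 2.28 to 2.92 CPM in TKO overlapped WT (0.786 to 2.91 CPM). Oasl1, a relative of the synthetases without their activity, was the member that rose, with 7.3, 7.5, 6.66 and 8.77 CPM against 3.15–3.44–3.73 CPM (1.13 ± 0.19, adjusted p = 1.27e-05).

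LBRKO mES cells had 2 members called lower (6.45%, against 3.25% of all genes) and none higher (3.06%). Rsad2 was at 2 to 6 reads per library against 5 to 18 (-1.95 ± 0.36) and Ifih1 at 8 to 11 reads against 15 to 38 (-1.55 ± 0.42). After correction for depth the groups did not overlap in either gene. Ifih1 and Rsad2 were thereby the members called lower in each of the 3 mutants in mES cells, which share the same WT libraries. Sting1 was at 21.5, 21.5, 21.1 and 20.8 CPM against 8.58–11.1–12.2 CPM in WT, clear of every WT library but just under 2-fold (0.96 ± 0.16, adjusted p = 8.92e-06), and over it with WT replicates 1 to 4 (1.09), as was Rigi (1.13). Rigi, at 38.5 to 49.1 CPM in LBRKO, was above WT replicates 1 to 4 (17.3 to 21.4 CPM) but overlapped replicates 5 to 8 (47.6 to 56.0 CPM). Its change ran from -0.23 to 1.13 over the alternatives run. Bst2, lower in the lamin mutants, was at 38.3, 43.4, 47.2 and 50.5 CPM in LBRKO (0.66 ± 0.14), where 1 library overlapped WT. Ifitm3 (86.3, 83.8, 80.5 and 77.6 CPM against 129 to 154 CPM, -0.79) and Ifitm1 (108, 107, 113 and 108 CPM against 152 to 221 CPM, -0.70) were below every WT library without reaching 2-fold. LBRKO libraries 1 and 2 differed from 3 and 4 in Stat2, at 58.8 and 55.4 against 31.4 and 36.5 CPM, and 16 of 31 members did not overlap between these pairs, 2 of them by over 2-fold. With 2 libraries on each side and no share computed over all genes, that count cannot show whether the members are unusual.

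Set directly against TKO, QKO mES cells had 2 members lower (6.45%, against 2.12% of all genes) and none higher (4.09%). Zbp1 was at 0.13, 0.23, 0.0785 and 0 CPM in QKO and 0.561, 0.535, 0.501 and 0.329 CPM in TKO (-2.12 ± 0.46, adjusted p = 0.000565). Oasl1 was at 2.73, 1.57, 2.24 and 2.98 CPM in QKO, below all TKO libraries (-1.66 ± 0.24). Irf1 was lower in all QKO libraries than in any TKO library (TKO 16.2, 18.5, 17.6 and 17.5 CPM) by -0.77 ± 0.15, under 2-fold. On the log2 scale the change in QKO was lower than the summed changes of LBRKO and TKO in 3 members and higher in none (9.68%, against 7.50% of all genes in either direction). These were Oasl1 (-2.32), Zbp1 (-2.58) and Bst2 (-1.25). Sting1 (-1.02) was added with WT replicates 1 to 4 and Oas3 (-1.21) with replicates 5 to 8.

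In QKO EpiLCs some members rose, but a smaller share than of all genes. Of 31 members 2 rose (6.45%, against 13.0% of all genes) and 5 fell (16.1%, against 8.16%). Rigi was at 17.2, 19, 20.2 and 22.4 CPM against 7.03–9.2–10.2 CPM in WT (log2 change 1.14 ± 0.20, adjusted p = 8.009e-06), and the change was 1.26 with the shallower and 1.03 with the deeper WT replicates. Ifit1 was counted 17 to 29 times per QKO library and 2 to 14 times per WT library, or 0.684, 0.544, 0.95 and 0.729 CPM against 0.0646–0.204–0.307 CPM (1.82 ± 0.51, adjusted p = 0.002456). For both genes every QKO library was above every WT library, and Ifit1 stayed under 1 CPM throughout.

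Several further members were above every WT library in all 4 QKO EpiLC libraries without passing the 2-fold threshold. The share of all genes that did so was not computed, so these values describe the members only. Eif2ak2 was at 18.3, 15.2, 16.9 and 18.6 CPM against 8.25–9.89–10.9 CPM (0.82 ± 0.07, adjusted p = 1.2e-12), and Ifitm3 at 91.8, 81.5, 96.1 and 96.8 CPM against 43.2–51.4–60.4 CPM (0.82 ± 0.07). Oas2 was at 1.58, 0.959, 1.11 and 0.953 CPM against 0.352–0.564–0.786 CPM (0.96 ± 0.22), which passed 2-fold under 9 of 20 alternatives (range 0.77 to 1.23), WT replicates 1 to 4 alone among them. Ifitm1 was at 16.1, 14.3, 18.3 and 18.6 CPM against 10.1 to 13.9 CPM (0.47 ± 0.10). None of these 4 overlapped with WT, and Cgas (2.99, 3.1, 4.42 and 3.36 CPM against 1.73–2.19–2.6 CPM, 0.68 ± 0.17) did not either. Rigi, Eif2ak2, Ifitm3, Oas2 and Ifitm1 were all called lower in WT EpiLCs than in WT mES cells, a comparison with the same WT EpiLC libraries. Of the 8 sensors and adaptors, 1 was called higher (12.5%, against 13.0% of all genes) and 2 lower (25%, against 8.16%) in QKO EpiLCs, with a median of -0.11. Ifih1, the other RIG-I-like receptor with a signalling domain, was called lower at 0 to 3 reads against 3 to 15 (-1.60 ± 0.58), a call lost without QKO replicate 1 (adjusted p = 0.0791).

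Of the members that fell in QKO EpiLCs, Oasl2 was the clearest, at 1.69, 1.47, 0.884 and 0.981 CPM against 6.87–7.6–9.11 CPM (-2.61 ± 0.25, adjusted p = 1.19e-11). Ifit2 was at 2.7, 3.33, 2.82 and 3.25 CPM against 4.27–6.13–8.22 CPM (-1.01 ± 0.17) and fell under 2-fold in 12 of 20 alternatives. Oasl1 (-1.13 ± 0.26) overlapped WT, and without QKO replicate 4, at 0.14 CPM, its change was -0.79. Sting1 (-1.03 ± 0.26) overlapped as well, with 0.18, 0.576, 0.229 and 0.812 CPM against 0.628 to 1.32 CPM, and its change was under 2-fold in 9 of 20 alternatives, at -0.79 with WT replicates 5 to 8 or without QKO replicate 1. Bst2, at 46.7, 44.1, 47.8 and 41.3 CPM against 58.7–69.8–94.6 CPM, was below every WT library by -0.67 ± 0.14, and Adar, at 50.6, 50.1, 54.8 and 53.8 CPM against 68.7 to 79.7 CPM, by -0.47 ± 0.06. Mavs was at 15, 15.1, 19.7 and 16 CPM against 19.7 to 25.4 CPM (-0.46 ± 0.08). Like Bst2 and Adar, Samhd1 (85.13 to 87.39 CPM in QKO against 93.85 to 124.9 CPM) lay below every WT library. So did Apobec3 (43.65 to 50.49 CPM against 53.99 to 73.82 CPM). Ifit2, Oasl2 and Ifih1 were therefore called lower in QKO at both stages, and Ifit1 and Ifit2, neighbours on chromosome 19, went in opposite directions in EpiLCs.

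**Figure D2:**
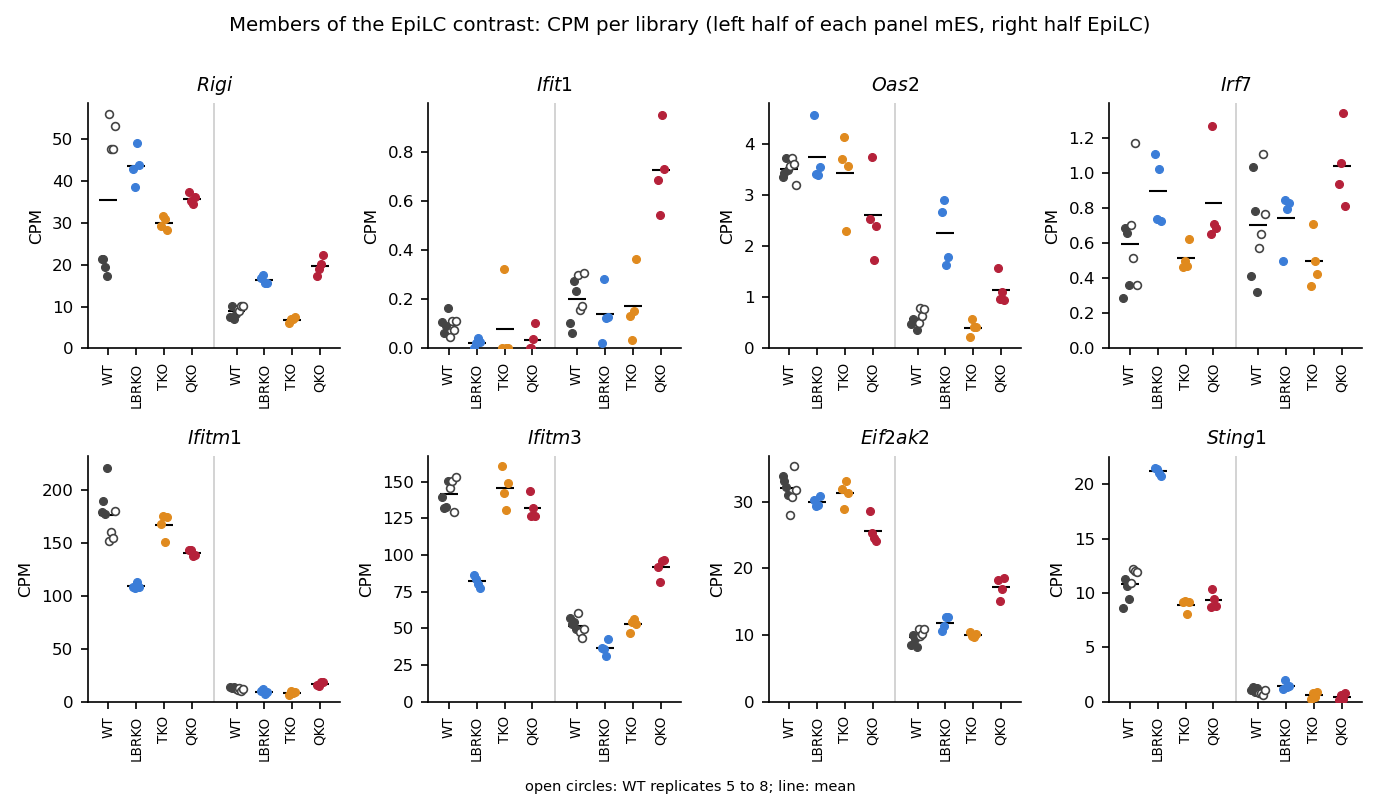
Normalised counts (CPM, linear axis from 0) of 8 members in every library, with mES cells left and EpiLCs right, lines at group means and open circles for WT replicates 5 to 8. In EpiLCs the QKO libraries of Rigi lie between 17.2 and 22.4 CPM and those of Eif2ak2 between 15.2 and 18.6 CPM, above all WT libraries, and the Rigi panel shows the separate sets of WT mES libraries.

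In LBRKO EpiLCs 1 member rose (3.23%, against 3.04% of all genes) and none fell (2.63%). That member was Oas2, at 2.68, 2.91, 1.63 and 1.79 CPM (1.93 ± 0.20, adjusted p = 4.52e-10), above all QKO libraries. Rigi was at 16.7, 17.5, 15.7 and 15.6 CPM, also clear of WT (0.87 ± 0.20), and Rsad2 at 3.54, 3.37, 4.83 and 4.6 CPM against 1.56–2.31–2.75 CPM (0.88 ± 0.21), which passed 2-fold with WT replicates 1 to 4 (1.08). Ifitm3 was at 36.4, 36, 30.9 and 42.4 CPM, below every WT library (-0.51 ± 0.08). In TKO EpiLCs no member rose (1.44%) and 1 fell (3.23%, against 1.48%), Oasl2 at 1.9, 2.13, 1.3 and 1.82 CPM (-2.10 ± 0.24, adjusted p = 1.62e-08). Rigi was at 6.13, 7.07, 6.92 and 7.48 CPM in TKO against 7.03 to 10.2 CPM in WT. In EpiLCs, levels of Rigi and Oas2 above every WT library were thus measured in both genotypes without Lbr, and levels of Oasl2 below 3 CPM in both genotypes without lamins.

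QKO and TKO EpiLCs differed in 4 members that were higher in QKO (12.9%, against 9.97% of all genes) and 1 that was lower (3.23%, against 5.29%). Rigi (1.51 ± 0.25, adjusted p = 4.78e-06), Oas2 (1.46 ± 0.28), Ifit1 (2.02 ± 0.65) and Irf7 (1.05 ± 0.36) were higher. The call of Ifit1 was lost without TKO replicate 2 (adjusted p = 0.05). Irf7, the interferon-inducible partner of Irf3, was at 8 to 20 reads in TKO and 26 to 41 in QKO, and its change was 0.19 when reads with several alignments were also counted. Oasl1 was lower (-1.34 ± 0.29). Ifitm1 (6.62, 9.55, 8.3 and 9.18 CPM in TKO) and Ifitm3 (46.8, 54.5, 56.4 and 53.2 CPM) were higher in every QKO library by 0.99 and 0.80. Relative to the summed changes of LBRKO and TKO, 5 members differed in QKO EpiLCs (16.1%, against 8.05% of all genes in either direction), Ifit1 by 2.58, Ifitm1 by 1.35, Ifitm3 by 1.30, Bst2 by -1.04 and Oasl1 by -1.62. For Ifitm3 the parts of this difference were 0.82 in QKO, -0.51 in LBRKO and 0.03 in TKO. With WT replicates 1 to 4 the calls of Ifit1 (adjusted p = 0.0946) and Bst2 (-0.91) were lost, and with replicates 5 to 8 Sting1 was added (-1.22).

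**Figure D3:**
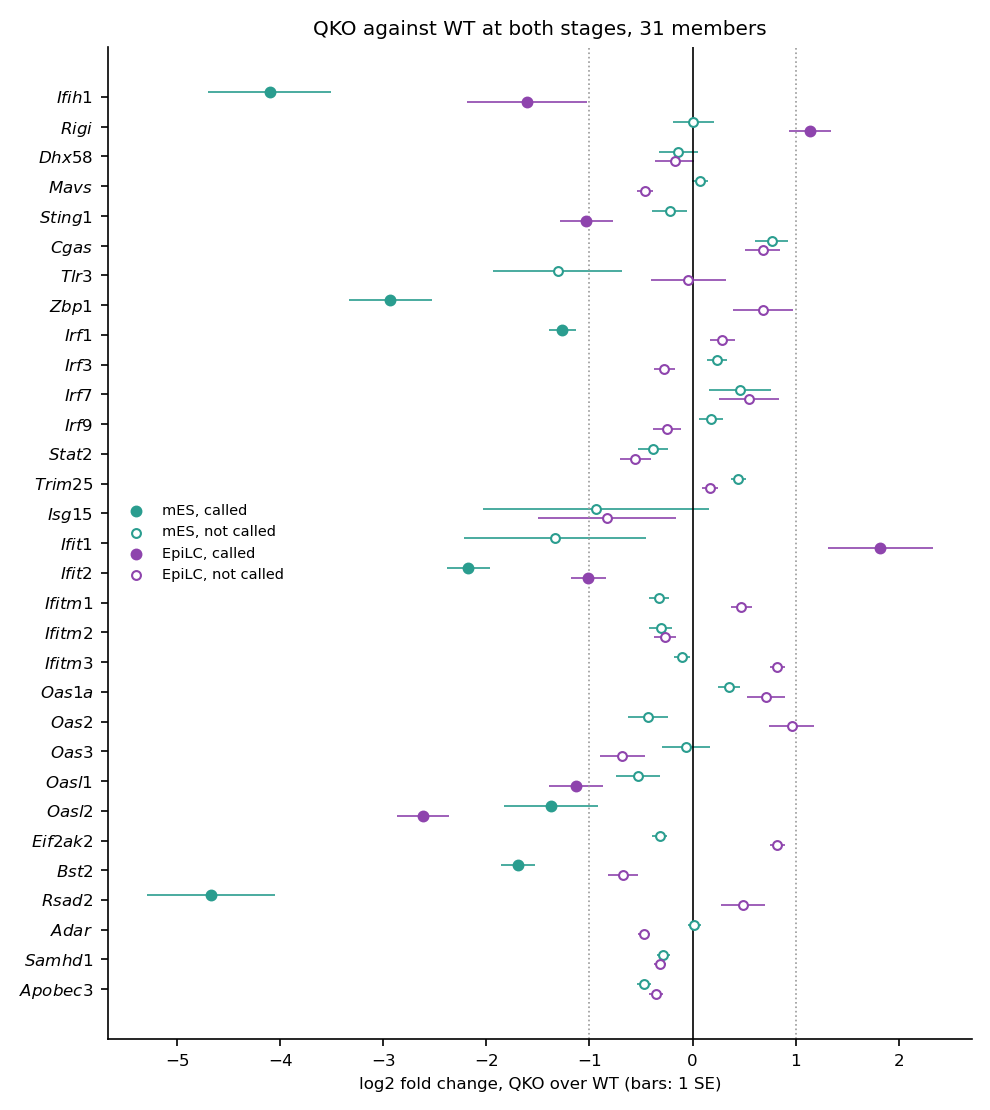
Log2 fold change of QKO over WT for the 31 tested members in mES cells and in EpiLCs (bars, SE; filled symbols, called; dotted lines at 2-fold). Rigi and Ifit1 are the filled points to the right in EpiLCs, whereas Irf1, Bst2, Zbp1 and Rsad2 are filled to the left in mES cells alone.

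The passage from mES cells to EpiLCs was tested for differences between mutants and WT. In QKO, 10 of 31 members (32.3%) had a different change from WT, against 12.6% of all genes in either direction, and all 10 were more positive. These were Irf1 (1.56 on the log2 scale), Bst2 (1.02), Eif2ak2 (1.14), Ifit1 (3.16), Ifit2 (1.16), Oas2 (1.40), Rsad2 (5.17), Ifih1 (2.501), Rigi (1.13) and Zbp1 (3.62). Irf1, Bst2, Ifit2, Rsad2, Ifih1 and Zbp1 were called lower in QKO mES cells, and the same mES values enter this term. A more positive passage is not a level above WT: Ifit2 and Ifih1 were called lower in QKO EpiLCs, and Bst2 was below every WT EpiLC library. Irf1 rose from 9.74 to 10.8 CPM in QKO mES cells to 31.9, 33.7, 34 and 35.3 CPM in QKO EpiLCs, a level that overlapped WT EpiLCs (18.6–28.3–33.1 CPM), and Rsad2 (2.63, 3.23, 3.83 and 2.8 CPM) and Zbp1 (0.504, 1.02, 0.589 and 1.15 CPM) likewise reached or passed WT after being near 0 in QKO mES cells. Rigi and Eif2ak2 instead fell less than in WT. The interaction of Rigi was 0.41 when the shallower WT replicates served alone as controls and 1.54 with the deeper ones, and that of Bst2 was 0.87 with the deeper ones. With the deeper ones alone the call of Ifit1 was lost (adjusted p = 0.0787), and that of Ifih1 was lost with either set (0.0865 and 0.0707). A less positive passage in QKO was called for Sting1 with the shallower set (-1.18) and for Oas3 with the deeper (-1.10).

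In TKO, 3 members had a more positive passage than in WT (9.68%, against 3.03% of all genes), namely Bst2 (1.24), Rsad2 (4.36) and Zbp1 (1.51). Bst2 in TKO EpiLCs was at 92.7, 73.6, 77.9 and 72.5 CPM, within the WT range, so that its lower level was measured in TKO mES cells and not in TKO EpiLCs. The call of Zbp1 was lost with WT replicates 1 to 4 (adjusted p = 0.21), and Oas3 was called less positive with replicates 5 to 8 (-1.14). In LBRKO there were 2 (6.45%, against 6.0% of all genes), Oas2 (1.84) and Rsad2 (2.83). Rsad2 had a more positive passage in every mutant, and the 3 estimates share the same WT libraries.

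**Figure D4:**
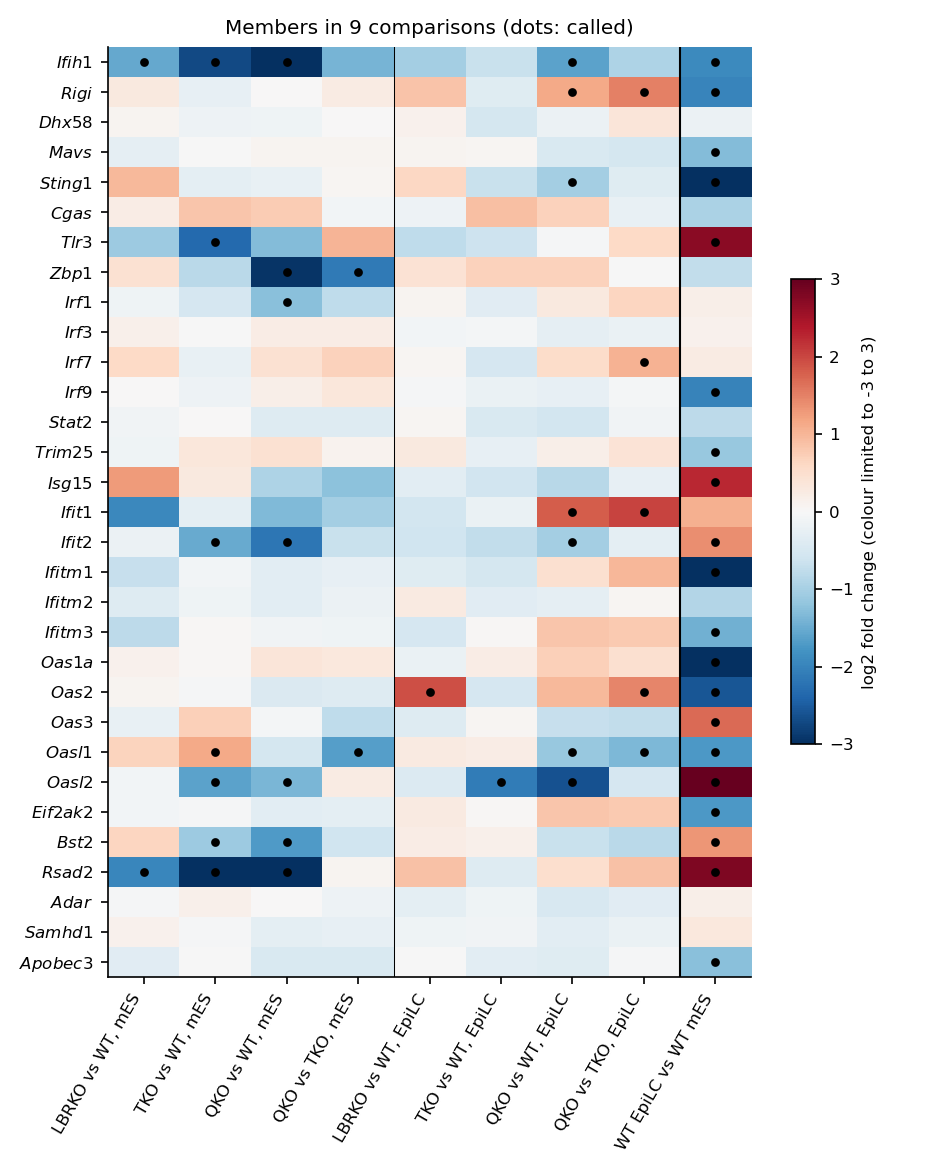
Log2 fold changes of the 31 tested members in the 9 comparisons of 2 groups (colour, limited to -3 to 3; dots, called). The column for stage in WT holds 20 dots, and the columns for LBRKO and TKO EpiLCs hold 1 each.

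Of the 6 tested signalling factors Irf1 alone, and of the 3 tested genes that edit or restrict nucleic acid none, passed the threshold in a mutant against WT. Irf1 fell in QKO mES cells, as 1 of 6 (16.7%, against 6.66% of all genes). Across the comparisons of a mutant with WT, 1.44% to 13.0% of all genes were called in a given direction. With 6 and 3 genes tested, these counts do not show whether either role is unusual. Irf3, the factor that sensors activate, was at 27.5, 29.3, 25.2 and 27 CPM in QKO mES cells (WT 19.4–22.2–28.2 CPM) and 19.9, 20.5, 22.9 and 21 CPM in QKO EpiLCs (WT 21.2–24.3–32.8 CPM). Trim25 was at 293, 306, 303 and 292 CPM in QKO mES cells, above all WT libraries (189–221–239 CPM) by 0.45 ± 0.08. Stat2 was at 18.8, 17.6, 20.5 and 19.8 CPM in QKO EpiLCs against 21.4–27.9–34.2 CPM (-0.55 ± 0.15), while Irf9 was within 0.25 of WT on the log2 scale at both stages. Adar, which edits double-stranded RNA and limits its sensing by MDA5, was at 63.6, 67.3, 68.1 and 62.6 CPM in QKO mES cells and 55.3 to 69.3 CPM in WT. Samhd1, which depletes nucleotides, was at 74.7, 71.4, 68.8 and 68.9 CPM in QKO mES cells against 79.2–85.9–102 CPM, and Apobec3, a restriction factor of retroviruses, at 107, 107, 107 and 105 CPM against 137–149–154 CPM (-0.47 ± 0.07). Both were below every WT library by less than 2-fold. Oas1a was at 49.8, 50, 52.8 and 48.3 CPM (0.36 ± 0.11), Mavs at 57.7, 57.8, 53.5 and 63.9 CPM and Ifitm2 at 136, 115, 122 and 130 CPM in QKO mES cells, all overlapping WT. Dhx58, a regulator of the RIG-I-like receptors, had between 16 and 88 reads in every library and was called in no comparison.

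Other genes of the pathway were listed for context. Of 11 interferon ligands only Ifnk, under 1 CPM, passed the filter, and Ifnb1 had no read in any of the 40 libraries. Ifnk was called higher in QKO mES cells (1.03) and QKO EpiLCs (1.30). Of 15 tested receptor and JAK-STAT genes, none was called in QKO mES cells, against 10.6% higher and 6.66% lower among all genes. Of 17 kinases and adaptors between sensors and interferon genes, 1 (5.88%, against 6.66% of all genes) fell in QKO mES cells (Nlrx1, a mitochondrial inhibitor of Mavs signalling, -2.69 ± 0.20) and 1 (5.88%, against 13.0%) rose in QKO EpiLCs. That gene was Ikbke, the kinase of Irf3 and Irf7, at 9.83 to 12.4 CPM against 1.26 to 1.58 CPM (2.90 ± 0.13, adjusted p = 2.727e-22).

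Among 45 tested further interferon-stimulated genes, 5 rose (11.1%, against 10.6% of all genes) and 8 fell (17.8%, against 6.66%) in QKO mES cells, and 4 rose (8.89%, against 13.0%) and 6 fell (13.3%, against 8.16%) in QKO EpiLCs. Among those with a mean of at least 1 CPM in either group, the 4 largest changes in QKO mES cells were those of Irgm1 (-3.71 ± 0.38), an immunity-related GTPase whose WT libraries ran from 4.08 to 19.3 CPM, Lgals9 (-2.58), Igtp (-1.84) and Irgm2 (-1.41). In QKO EpiLCs they were Lgals9 (-2.50), the immunoproteasome subunits Psmb8 (-1.87) and Psmb9 (-1.45), and Irgm2 (-1.06). The genes that rose are named here after their values were seen. In QKO mES cells they were Nlrc5, the activator of MHC class I genes (2.89, at no more than 0.651 CPM in any QKO library), Samd9l (1.37), Ddx60 (1.36, 1.73 to 3.12 CPM against 0.393 to 1.32 CPM), Ifitm5 (1.35) and Gbp9 (1.14). In QKO EpiLCs they were Phf11b (3.54), Sp110 (1.75), Ifitm5 (1.66) and Ifi27 (1.29), all under 1 CPM in every QKO library. Of 18 genes of RNA decay 1 (5.56%, against 6.66% of all genes in mES cells and 8.16% in EpiLCs) fell at each stage in QKO, Prkra, an activator of PKR (-1.25 and -2.16). Of 11 cell death genes none was called in QKO against WT. Among all genes, 10.6% rose and 6.66% fell in QKO mES cells, and 13.0% and 8.16% in QKO EpiLCs. With 11 genes tested, that absence does not set them apart.

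The TE transcripts against which these values are set were raised in every QKO library. TEs took 12.6% ± 1.0 (SD, n = 4) of counts in QKO mES cells and 7.60% ± 0.97 (n = 8) in WT mES cells, and 13.9% ± 0.3 against 8.51% ± 0.98 in EpiLCs, with TKO at 9.26% and 9.62%. The young LINE-1 subfamily L1MdA_I was at 2592 ± 135 CPM in QKO mES cells and 1963 ± 81 CPM in TKO mES cells, against 231 ± 64 CPM in WT and 220 ± 61 CPM in LBRKO. In EpiLCs it was at 2989 ± 397 CPM in QKO, 1248 ± 72 CPM in TKO, 613 ± 132 CPM in LBRKO and 369 ± 54 CPM in WT. The endogenous retrovirus MMERGLN-int had means of 3.89, 86.1 and 104 CPM in WT, TKO and QKO mES cells, and RLTR45-int of 51.5, 160 and 1117 CPM. In EpiLCs IAPEz-int was at 536 ± 16 CPM in QKO and 328 ± 28 CPM in WT. In mES cells IAPEz-int in QKO (485 to 586.2 CPM) overlapped WT (392.4 to 581.3 CPM). MERVL-int overlapped at both stages, at 141.4 to 158.6 CPM in QKO EpiLCs and 134.2 to 229.8 CPM in WT EpiLCs. B2_Mm1a overlapped in EpiLCs, at 1993 to 2981 CPM in QKO and 677.5 to 2082 CPM in WT. In mES cells, L1MdA_I in TKO and QKO was thus above every WT library beside 1 and 0 members called higher and 6 and 7 called lower (3 and 1 higher, 5 and 7 lower with WT replicates 5 to 8 alone), and in LBRKO it overlapped WT beside 2 members called lower. The part of TE transcripts in the level of a member was not tested.

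**Figure D5:**
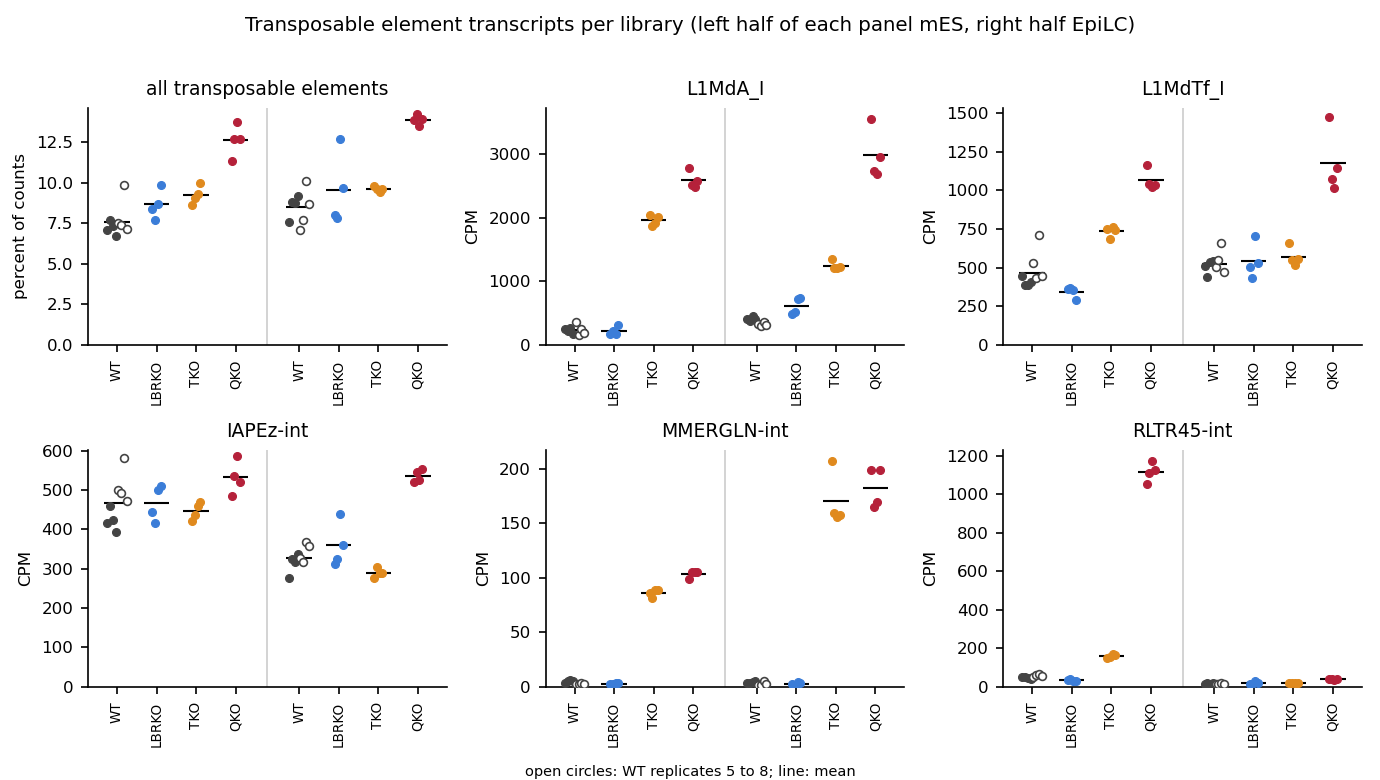
Percent of counts on TEs (first panel) and CPM of 5 TE families per library (linear axes from 0), with mES cells left, EpiLCs right and lines at group means. L1MdA_I is at 1868 to 2043 CPM in TKO mES cells and 2488 to 2787 CPM in QKO mES cells, against 148.6 to 351.5 CPM in WT.

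TE copies near members were examined so that reads from a copy could be seen beside the gene. Within 10000 bp of the 11 members called in QKO against WT lay 738 annotated copies, of which 16 reached 0.5 CPM in any group. None of the 16 was near Ifih1, Ifit1, Ifit2, Irf1, Rsad2 or Zbp1. Near Rigi there were 3. A B1 copy that overlaps an exon on the opposite strand (chr4:40204888-40205005) was at 0.624 to 1.17 CPM in WT EpiLCs and 0.539 to 3 CPM in QKO EpiLCs, and a B2 copy in an intron (chr4:40214112-40214306, opposite strand) at 0.11 to 0.429 CPM in WT, 0.622 to 1.19 CPM in QKO and 0.745 to 1.28 CPM in TKO EpiLCs. The B2 copy thus overlapped between TKO, where Rigi was not above WT, and QKO. Near Bst2 an RMER6A copy outside the gene (chr8:71984177-71984448) was at 0.272 to 0.718 CPM in WT EpiLCs and 1.37 to 1.94 CPM in QKO EpiLCs, where Bst2 itself was lower. These 3 copies were at lower CPM than the gene beside them.

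Markers of other cell types were low. The summed level of 9 macrophage and leukocyte markers was 7.29 to 10.9 CPM in WT EpiLCs and 21.4 to 25.9 CPM in QKO EpiLCs, through Cd68 (18.5 to 22.8 CPM in QKO), a lysosomal gene that other cells also express, whereas Ptprc, which defines leukocytes, stayed at or below 1.26 CPM in every library. The sum over 8 fibroblast markers was 19.8 to 26.2 CPM in WT and 9.99 to 10.7 CPM in QKO EpiLCs, and that over 8 primitive endoderm markers 53.2 to 66.7 and 43.1 to 50.9 CPM. The primitive endoderm markers went both ways in QKO EpiLCs, with Gata6 (2.96) and Pdgfra (2.56) called higher and Sox7 (-2.27) and Dab2 (-1.39) lower. In mES cells the primitive endoderm sum was 16 to 18.4 CPM in WT and 5.85 to 8.16 CPM in QKO, with 5 of the 8 called lower and none higher, moving with the 7 lower members, and its part in them was not tested. Over the 8 naive and 7 EpiLC markers the sums were 121 to 187 and 4224 to 5037 CPM in WT EpiLCs, and 154 to 182 and 3153 to 3304 CPM in QKO EpiLCs. The EpiLC sum was thus lower in QKO, where Rigi, Eif2ak2, Ifitm3 and Oas2 were above WT, although no EpiLC marker was called. Naive markers went both ways, with 3 called higher (37.5%, against 13.0% of all genes) and 1 lower (12.5%, against 8.16%). The part of these markers in those levels was not tested.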

How the data were processed

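The deposited tables held raw read counts per gene, per TE family and per TE copy in 40 libraries. Per the methods of the study, the authors prepared stranded, ribosome-depleted total RNA libraries, trimmed the reads (cutadapt 2.5), aligned them to GRCm39 with the GENCODE M30 annotation (STAR 2.7.10a) and made the counts of genes and copies from singly aligned reads (featureCounts 1.6.4). Whether the counting used strand is not given in the sources used here, and values of overlapping and antisense genes, and of paralogues such as the Ifitm, Ifit and Oas genes, are uncertain. No sample column was left unmapped (0).

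Genes were tested with the quasi-likelihood test of edgeR 4.0.16 in R 4.3.3 (TMM scaling, filterByExpr on the 8 groups, 1 mean per group over all 40 libraries, Benjamini-Hochberg adjustment over 23399 genes). A gene was called at an adjusted p under 0.05 and a fold change over 2. CPM used TMM-scaled library sizes, RPKM also the exon length of the gene table, and TE values came from the table that includes reads with several alignments. Errors of fold changes are SE and of levels SD. The script was tested on simulated counts. Of 56748 identifiers, 56017 were found in GENCODE M39, including all 36 members. Levels are given library by library for members called in QKO against WT or in 2 or more other mutant comparisons, or over 20 CPM in a group. From other lists up to 4 called genes per comparison with the largest changes and at least 1 CPM were eligible. Members and lists were chosen with earlier results of these data known. Alternatives were DESeq2 1.42.0, its size factors, no low count filter, a replicate block, either set of WT replicates, counts that include multiple alignments, only the groups compared, and leaving out each library. Counts of 22.59 to 48.86 M per library set the precision. Counting intervals are exact. A result that needs a withheld item is not reported here.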

Additional observations from a re-analysis of the deposited data

Results flagged for a closer look

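In a group of 4 to 8 libraries, 1 library stood apart from the others in 6 of 185 groups examined, and chance alone gives about 1 in 20. These were Bst2 in TKO mES replicate 1 (16.88 CPM, others 11.99 to 12.32), Oas2 in LBRKO mES replicate 1 (4.58 CPM, others 3.396 to 3.555), Oasl1 in TKO EpiLC replicate 3 (1.874 CPM, others 0.9691 to 1.03) and Samhd1 in WT mES replicate 8 (101.6 CPM, others 79.19 to 89.72). Sting1 in TKO mES replicate 3 was low (8.043 CPM, others 9.133 to 9.282), and Trim25 in TKO mES replicate 2 was high by a small margin (281.6 CPM, others 273.4 to 274.6).

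The log2 change on passage to EpiLCs differed between QKO and WT for Irf1 (by 1.5559), Bst2 (1.0203), Eif2ak2 (1.1396), Ifit1 (3.1564), Ifit2 (1.164), Oas2 (1.3964), Rsad2 (5.167), Ifih1 (2.5006), Rigi (1.131) and Zbp1 (3.6184), each tested as an interaction in edgeR. Between TKO and WT it differed for Bst2 (1.2379), Rsad2 (4.3581) and Zbp1 (1.5063), and between LBRKO and WT for Oas2 (1.8435) and Rsad2 (2.8307). The change in QKO mES cells differed from the summed changes of LBRKO and TKO for Bst2 (-1.2535), Oasl1 (-2.3194) and Zbp1 (-2.5807). In QKO EpiLCs it differed for Bst2 (-1.0436), Ifit1 (2.5755), Ifitm1 (1.3527), Ifitm3 (1.3047) and Oasl1 (-1.6165). The interactions of Ifih1, Ifit1 and Rsad2, and those of Zbp1 in QKO, rest on single-digit reads in most libraries of at least 1 group. Rsad2 had 0 or 1 read in each QKO and TKO mES library, and Zbp1 had 0 to 6 in each QKO mES library. The interactions of Ifih1 in QKO, Ifit1 and Bst2 lost their call under several alternatives.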

How the results depend on the processing

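Of 75 called values of a member in a comparison, 57 kept their call under every alternative run, 18 lost it under at least 1 and 15 on leaving out 1 library. Of the uncalled values 34 were called under at least 1 alternative, and no called value changed sign. The number of members called moved by over 1.5 times as follows. For LBRKO against WT in mES cells it was 4 in place of 2 with WT replicates 1 to 4, where Rigi (1.13) and Sting1 (1.09) passed 2-fold. With only the groups compared it was 4 in place of 7 for TKO mES cells, where Oasl2, Rsad2 and Tlr3 no longer passed the low count filter, and 1 in place of 2 for QKO against TKO mES cells, where Zbp1 did not pass it. For LBRKO EpiLCs it was 2 in place of 1 without the low count filter, with WT replicates 1 to 4 and with DESeq2. For QKO EpiLCs against the sum of LBRKO and TKO it was 3 in place of 5 with WT replicates 1 to 4, and the cause was not tested. On leaving out 1 library the number ran from 1 to 2 for LBRKO EpiLCs (2 without LBRKO replicate 2), from 1 to 2 for TKO EpiLCs (2 without TKO replicate 1, with Cgas at 1.03) and from 4 to 8 for QKO EpiLCs (4 without QKO replicate 1).

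Same-numbered libraries were not treated as paired. Across the comparisons of 2 groups the correlation of their deviations from the group means ran from -0.255 to 0.451, and over 0.1 in 4 of 8 pairs between the WT stages. The best correlation was with the same number for 4 of 8 WT EpiLC libraries against WT mES and 3 of 4 QKO EpiLC libraries against TKO. Some comparisons may therefore share structure by replicate number. With the replicate number as a block, LBRKO EpiLCs had 3 members called in place of 1, with Rigi at 1.31 and Rsad2 at 1.01. The other 13 counts stayed within 1.5 times.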
